A study of Mus musculus with 2 samples.

Results

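The genes described here encode the extracellular matrix of the kidney, the integrins that anchor cells to it, and the proteases and protease inhibitors that remodel it. They were chosen by gene symbol: collagens, laminin chains, integrin subunits, TIMPs, MMPs and ADAMTS proteases by the pattern of their names, and Fn1, Tnc, Sparc, Thbs1, Postn, Dcn, Lum, Bgn, Ccn1 and Ccn2 by name. The rule took 128 genes, read by 257 probe sets, of 18194 genes read by 34958 probe sets with a single symbol. Expression was compared between injured kidneys of male C57BL/6 mice, either wild type (WT AKI) or deficient in estrogen sulfotransferase (EST KO AKI), where AKI is acute kidney injury. All mice were 8 weeks old and had both kidneys made ischemic for 30 min while warm, with tissue taken after 24 h of reperfusion. The WT array held RNA from 180 mg of tissue pooled from 3 mice, and the EST KO array held RNA from 124 mg pooled from 6 mice. There was 1 array per genotype, so the spread between mice is unknown, no test between genotypes was possible, and every difference below is a size with no replicate check. Both pools were injured, so no value compares injured with healthy kidney.

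Matrix is laid down as interstitial fibrils, built mainly of fibrillar collagens, and as basement membranes, sheets of type IV collagen and laminin that underlie tubules, vessels and glomeruli. Integrins are pairs of an alpha and a beta chain that bind these proteins and link them to actin. Matricellular proteins such as tenascin C are made after injury and alter adhesion and growth factor activity, whereas MMPs and ADAMTS enzymes cut matrix and TIMPs block them.

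Values are the deposited intensities on a linear scale, given as WT then EST KO, from the brightest probe set of each gene. Background was set from 126 probe sets of olfactory, vomeronasal and bitter taste receptors and keratin-associated proteins, genes with little expression in kidney; their 95th percentile was 676.6 for WT and 643.9 for EST KO. Of the 128 genes, 47 were measured, meaning above background in at least 1 pool: 37 in both, 6 in the WT pool alone and 4 in the EST KO pool alone. The other 81 lay below background in both pools and have no fold. Dim values were set to background before log2 ratios (EST KO minus WT) were taken, so that where 1 pool was dim the fold is a minimum, written "at least". The direction of such a gene, where it has one, is set by the pool in which it was measured. Between the 2 brightest probe sets of a gene the log2 ratio differed by a median of 0.21, with a 90th percentile of 0.62, over 1652 genes. This disagreement is the only error the arrays allow to be measured.

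More of the measured genes were lower than higher in the EST KO pool, and the 4 differences past 2-fold were all in the lower direction. Of 45 genes with an order between the pools, 30 (66.7%) were lower, against 55.6% of 7341 genes over the whole array, and 15 (33.3%) were higher, against 44.4%. Tnc, Ccn2, Lamb1 and Timp1 were at least 2-fold lower, which is 4 of 45 (8.89%) beside 1.42% of all genes. Tnc and Lamb1 were above background in the WT pool alone, so their direction was fixed by the filter. Of genes above background in both pools, 2 of 37 were at least 2-fold lower, beside 73 of 6084 over the whole array. None was at least 2-fold higher, beside 3.08% of all genes. At a 1.5-fold limit 8 of 45 (17.8%) were lower, beside 7.44% of all genes, and 2 (4.44%) were higher, beside 8.62%. The median log2 ratio was -0.18, against -0.05 over all genes. Of the 45 genes, 26 lay within 0.3 of zero on the log2 scale, a share that was not counted over all genes. The median of the family was near that of all genes, while a larger share of it was past 1.5-fold and 2-fold lower and a smaller share higher. Those shares rest on a small number of genes.

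**Figure D1:**
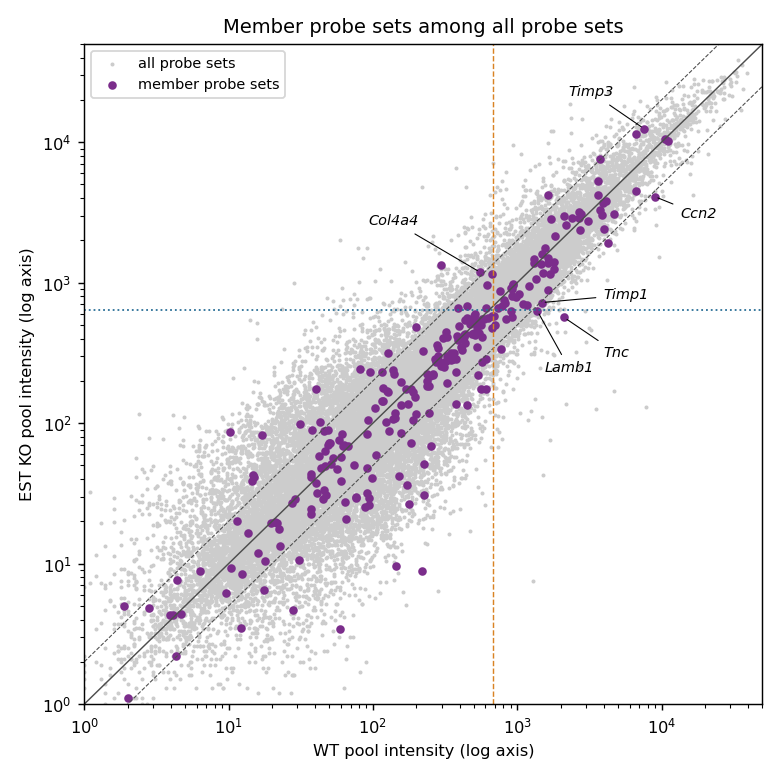
Intensity of every probe set in the WT pool (horizontal, log axis) and the EST KO pool (vertical, log axis), with the 257 probe sets of matrix, integrin and protease genes in purple and values below 1 not shown. Solid and dashed diagonals mark equality and 2-fold differences, and the vertical and horizontal lines mark background at 676.6 and 643.9; Tnc, Lamb1, Timp1 and Ccn2 lie below the lower diagonal or next to it.

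Among matricellular proteins and matrix glycoproteins, 5 of 8 measured genes were lower, beside 55.6% of all genes, and 3 higher, with a median log2 ratio of -0.35. Tnc, tenascin C, a hexameric glycoprotein that appears in injured and remodelling tissue, read 2111 and 565.5. The EST KO value was below background, so Tnc was at least 3.28-fold lower and its direction was fixed by the filter. That bound depends on the floor: its log2 ratio was -1.71, against -1.09 with the 99th percentile background and -1.29 with a pseudocount, still past 2-fold in both. Its other probe set was below background in both pools (37.1 and 24.3), so 1 probe set carries the result. Ccn2, connective tissue growth factor, a profibrotic matricellular protein induced by TGF-beta, read 8951 and 4101 and was 2.18-fold lower at its only probe set. Ccn2 was bright in both pools, so with a single probe set only the pseudocount and the changes of scaling could alter its value. Under these it stayed more than 2-fold lower, with log2 ratios from -1.28 to -1.04.

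Ccn1, the relative of Ccn2 formerly called Cyr61, had the opposite direction and read 3619 and 4215, or 1.16-fold higher. Its second probe set read 2118 and 2976, 1.41-fold higher. The log2 ratios of Ccn1 and Ccn2 were 1.35 apart, a 2.54-fold change in their ratio between the arrays. Sparc, a collagen-binding protein needed for fibril assembly, read 4022 and 2407 (1.67-fold lower) at its brightest probe set and 4253 and 1903 (2.23-fold lower) at the next, so it passed 2-fold at 1 of them only. Thbs1, thrombospondin 1, an activator of latent TGF-beta, was 1.42-fold lower (1784 and 1252), and its second probe set was 1.29-fold lower.

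The small leucine-rich proteoglycans, which coat collagen fibrils, did not share a direction. Dcn, decorin, read 2402 and 2890 and was 1.20-fold higher. Bgn, biglycan, was 1.15-fold lower at its brightest probe set (3774 and 3287) but 1.85-fold lower at the second (1631 and 882.6), and its log2 ratio was -0.53 with the mean of its probe sets against -0.20 with the brightest. Fn1, fibronectin, the glycoprotein that integrins assemble into early repair matrix, read 901.4 and 917.3 and differed by 1.02-fold. Postn (324.4 and 191.9), the fibroblast product periostin, and Lum (185.0 and 176.0), the keratan sulfate proteoglycan lumican, lay below background in both pools.

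The TIMP inhibitors lay on opposite sides of equality. Timp1, the injury-induced soluble inhibitor, read 1476 and 721.6 at its only probe set and was 2.05-fold lower, with the EST KO value just above background. Its log2 ratio no longer reached 2-fold with centring (-0.98), quantile normalization (-0.998), removal of the trend with level (-0.95), a pseudocount (-0.69) and a 99th percentile background (-0.57), so its place past 2-fold is marginal, while it was lower under every alternative. Timp3, the inhibitor that stays bound to matrix and also blocks ADAM and ADAMTS enzymes, was higher at all 4 of its probe sets. These read 7591 and 12438 (1.64-fold), 6634 and 11479 (1.73-fold), 3774 and 7600 (2.01-fold), and 1625 and 4177 (2.57-fold). Every one of the 4 probe sets was past 1.5-fold, and 2 of them were past 2-fold. Under quantile normalization (log2 0.53) and with the trend removed (0.57) the brightest probe set of Timp3 was under 1.5-fold. The log2 ratios of Timp3 and Timp1 were 1.74 apart, a 3.35-fold change in their ratio between the arrays.

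Timp2, which helps MMP14 to activate MMP2, differed by 1.04-fold (935.6 and 975.4). Another probe set of the gene read 295.6 and 1334, a bound of 1.97-fold higher, while probe sets at 939.1 and 965.6 and at 738.7 and 661.8 were nearly level, so the probe sets of Timp2 disagree. Timp4 lay below background (425.2 and 408.8).

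Promoter sequences are shown for Tnc, which was past 2-fold under every alternative that gave a value, and for Timp1 and Timp3, the inhibitors with opposite directions. Each is the 250 bases before the RefSeq start on assembly GRCm38.p6, written 5′ to 3′ on the gene's strand: Tnc at chr4:64047016-64047265 on the minus strand (the more distal of its 2 annotated starts), Timp1 at chrX:20869916-20870165 on the plus strand, and Timp3 at chr10:86300162-86300411 on the plus strand. Capitals mark matches, on either strand, to the letters TGANTCA (AP-1), GGAATG (TEAD), TATAAA or the CArG box.
Tnc: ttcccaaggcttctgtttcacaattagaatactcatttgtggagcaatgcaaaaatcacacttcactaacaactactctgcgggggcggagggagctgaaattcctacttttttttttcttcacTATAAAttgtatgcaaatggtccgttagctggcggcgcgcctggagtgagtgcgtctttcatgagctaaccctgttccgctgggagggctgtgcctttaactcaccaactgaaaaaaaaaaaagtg
Timp1: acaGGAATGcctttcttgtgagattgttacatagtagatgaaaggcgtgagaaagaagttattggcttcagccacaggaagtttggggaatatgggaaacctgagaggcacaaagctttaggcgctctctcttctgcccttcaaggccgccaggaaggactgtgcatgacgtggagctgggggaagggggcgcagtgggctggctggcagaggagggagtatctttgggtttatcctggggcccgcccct
Timp3: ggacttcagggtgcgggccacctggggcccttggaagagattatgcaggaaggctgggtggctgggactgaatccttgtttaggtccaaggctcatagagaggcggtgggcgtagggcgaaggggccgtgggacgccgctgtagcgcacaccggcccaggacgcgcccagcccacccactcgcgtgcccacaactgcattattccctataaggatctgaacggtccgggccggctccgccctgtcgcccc
Tnc held TATAAA at 126 to 121 bases before this start, Timp1 held GGAATG at 247 to 242 bases before its start, and Timp3 held none of the 4 motifs. Windows of 300 bases, 250 before to 50 after the start, were found in the RefSeq table for 34 of the 47 measured genes. GGAATG was in a window of 7 of these 34 genes and in 14.7% of all 32851 windows, TATAAA in 5 genes and 13.6% of windows, TGANTCA in 1 gene (Itga3) and 7.81% of windows, and the CArG box, which can overlap TATAAA, in 1 gene (Itgb6) and 1.63% of windows. The gene counts take a match in any window of a gene, and some genes have 2, while the percentages are of single windows. The 2 figures are therefore not like for like. A match is a description of the letters and says nothing of binding.

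All 4 measured MMPs and all 4 measured ADAMTS proteases were lower in the EST KO pool, also under each scaling tried, with median log2 ratios of -0.27 and -0.46. Over all genes 55.6% were lower. Mmp8, Mmp9 and Adamts16 were above background in the WT pool alone, so their direction was fixed by the filter. Mmp2 (log2 -0.19) and Adamts1 (-0.18) differed by less than the median probe set disagreement of 0.21. Mmp14, the membrane-anchored collagenase MT1-MMP, read 1345 and 1060 (1.27-fold lower), and Mmp2, the gelatinase it activates, 821.7 and 718.5 (1.14-fold lower). Mmp8, the neutrophil collagenase, was at least 1.41-fold lower (908.9 and 632.7). Mmp9, the gelatinase of neutrophils and other cells, was near background in the WT pool (697.7) and below it in the EST KO pool (498.5), a bound of 1.08-fold. Beside these, S100a8 and S100a9, abundant in neutrophils, were 3.22-fold (2093 and 649.3) and 1.42-fold (1303 and 916.9) lower, and the part of neutrophil number in the Mmp8 and Mmp9 values was not tested. The EST KO value of S100a8 was just above background. None of the MMPs reached 1.5-fold, and the other 14 on the array, among them Mmp7 (450.7 and 133.6), Mmp3 and Mmp12, lay below background in both pools.

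Of the ADAMTS enzymes, Adamts10, which binds fibrillin microfibrils, was 1.56-fold lower (1095 and 700.8), and fell short of 1.5-fold with a pseudocount (log2 -0.41) and with the trend removed (-0.54). Adamts9, which cleaves versican and aggrecan, was 1.47-fold lower (1691 and 1149) at its brightest probe set and 1.08-fold lower (1463 and 1352) at the next. Adamts1, another versican-cleaving enzyme, read 2700 and 2389 (1.13-fold lower), and Adamts16 829.7 and 550.0 (at least 1.29-fold lower). The other 11 ADAMTS genes lay below background.

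**Figure D2:**
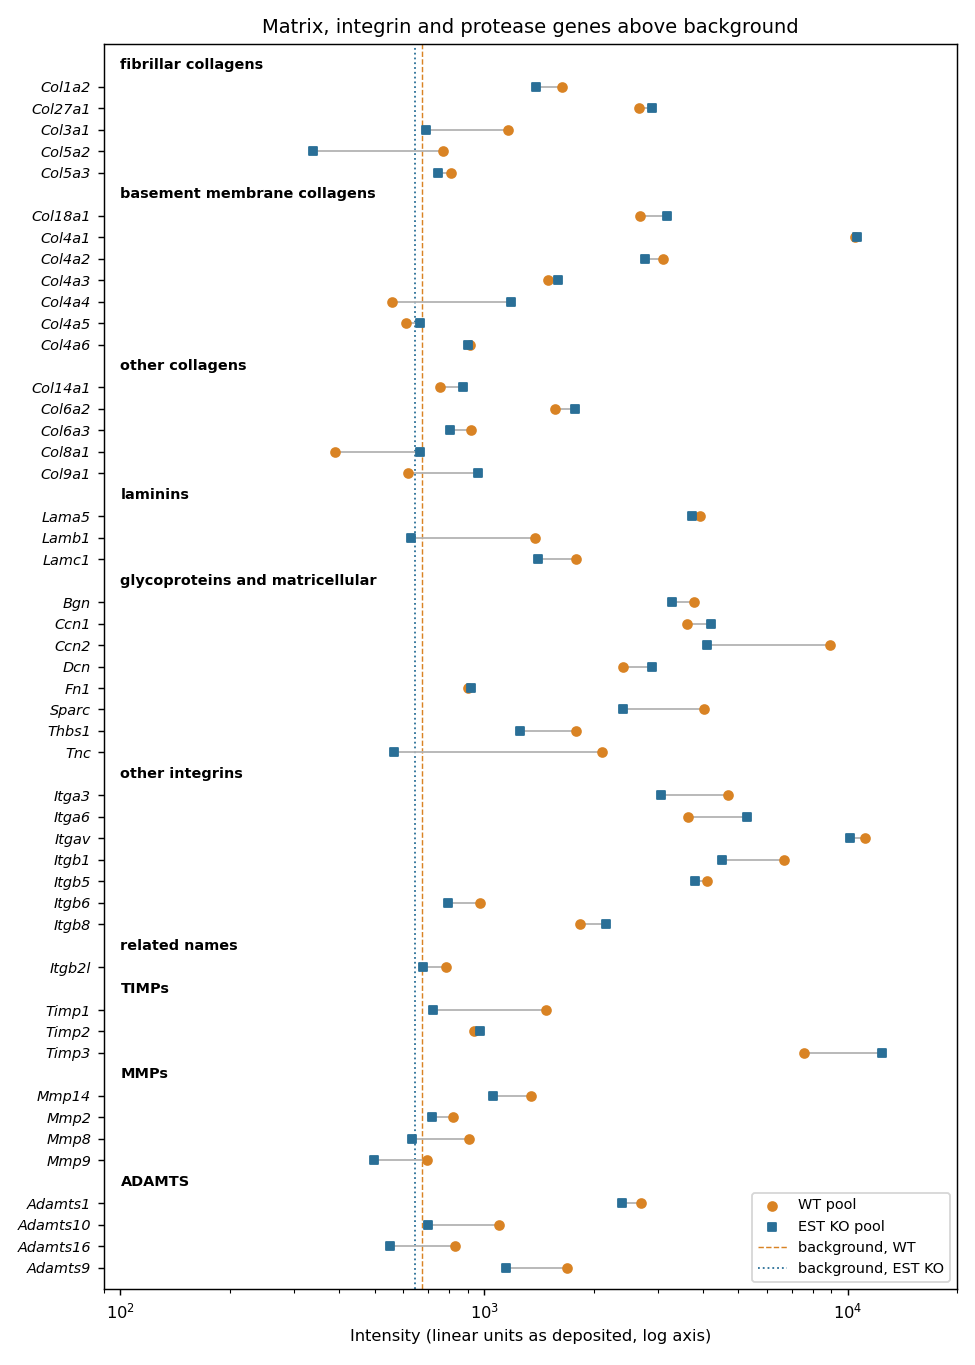
Intensity (log axis) of the 47 measured genes in the WT pool (circles) and the EST KO pool (squares), 1 array each, by role; dashed and dotted lines mark background in the WT (676.6) and EST KO (643.9) pools. The EST KO squares of Tnc, Ccn2, Lamb1 and Timp1 lie well to the left of the WT circles, as does that of Col5a2, which is below background at 339.1; the squares of Timp3, Itga6 and Col4a4 lie to the right, and most other pairs are close together.

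The collagens were divided: 8 of 15 ordered genes were higher, beside 44.4% of all genes, and 7 lower, with a median log2 ratio of 0.02. Fibrillar collagens were lower at 4 of 5 measured genes, beside 55.6% of all genes, with a median of -0.24; quantile normalization made it 5 of 5. Col3a1, the type III chain of young interstitial fibrils, read 1160 and 691.3 and was 1.68-fold lower, although log2 was -0.48 with a pseudocount and -0.23 with the 99th percentile background. Col1a2, a type I chain, read 1633 and 1387, 1.18-fold lower, and its partner Col1a1 lay below background (437.8 and 372.1), so the trimer was read through 1 chain only. The type V chains Col5a2 (768.1 and 339.1, at least 1.19-fold lower) and Col5a3 (810.5 and 748.5, 1.08-fold lower) were dim, and Col5a1 was below background. With no floor the log2 ratio of Col5a2 was -1.18, so its bound depends on the dim EST KO value. Col27a1 read 2663 and 2891, 1.09-fold higher, but its log2 ratio was -0.02 after quantile normalization.

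Basement membrane collagens were close to level, with 4 of 6 ordered genes higher, beside 44.4% of all genes, and a median log2 ratio of 0.06, within the disagreement between probe sets. Centring made it 5 of 6. Col4a1, which with Col4a2 forms the type IV network of nearly all basement membranes, read 10483 and 10609, a difference of 1.01-fold, and Col4a2 read 3101 and 2762, 1.12-fold lower. Col4a1 and Col4a2 lie head to head, and their RefSeq promoter windows overlap by 78 bases at chr8:11312777-11312854. Their log2 ratios lay 0.18 apart, less than the median disagreement between probe sets of 1 gene, and the second probe set of Col4a1 was 1.28-fold lower (3846 and 3007), so the pair had no settled direction. Col4a1 turned to lower under quantile normalization, trend removal and the mean of its probe sets.

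The chains of the mature glomerular network, which are mutated in Alport syndrome, were level or higher. Col4a4 was at least 1.75-fold higher (556.4 and 1182). It rests on a WT value below background, its other 2 probe sets were below background in both pools, and with the 99th percentile background its bound shrank to log2 0.05. Col4a3 read 1496 and 1599 (1.07-fold higher) at its brightest probe set and was at least 1.69-fold higher at the other (668.1 and 1146). Col4a5 read 610.8 and 664.6, too near background to order, and Col4a6, a type IV chain of other basement membranes, was level (912.7 and 902.2). Col18a1, the proteoglycan collagen from which endostatin is cut, was 1.19-fold higher (2678 and 3182), and its second probe set was 1.18-fold higher (2193 and 2581). Of 5 podocyte and mesangial markers on the array, Podxl alone was measured, 1.34-fold lower (1056 and 790.2), Nphs1, Wt1, Synpo and Itga8 lay below background, and the 5 summed to 2572 and 2177. The part of these cells in the Col4a3 and Col4a4 values was not tested.

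Of the remaining collagens, Col9a1, a chain of a collagen that decorates fibrils, was at least 1.42-fold higher (616.5 and 961.0), and Col14a1, another fibril-associated collagen, 1.15-fold higher (756.2 and 872.0). Type VI collagen, which forms beaded filaments next to cells, was read through Col6a2 and Col6a3. Col6a2 was 1.13-fold higher at 1 probe set (1565 and 1775) and 1.28-fold lower at the other (1504 and 1179), and Col6a3 was 1.14-fold lower (918.7 and 807.0). Col8a1, a vascular collagen, read 388.8 and 665.2 and had no order. Another 17 genes of this group lay below background.

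Laminin chains were lower at all 3 measured genes, under each scaling too, with a median log2 ratio of -0.35. Over all genes 55.6% were lower. Lamb1, the beta 1 chain of many epithelial and vascular laminins, was at least 2.14-fold lower (1377 and 629.4). It was above background in the WT pool alone, so its direction was fixed by the filter. Its other 3 probe sets lay below background in both pools, the probe set used has a suffix for probes shared between transcripts, and log2 was -0.73 with a pseudocount and -0.47 with the 99th percentile background. Lamc1, the gamma 1 chain that most laminins share, was 1.27-fold lower (1794 and 1408). Lama5, the alpha 5 chain of mature tubular and glomerular basement membrane, read 3911 and 3720, 1.05-fold lower, and its second probe set was 1.23-fold lower. Nid1, nidogen 1, which ties laminin to type IV collagen, was also lower, by 1.67-fold (1811 and 1087).

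Integrins were lower at 5 of 7 measured genes, beside 55.6% of all genes, and higher at 2, with a median log2 ratio of -0.14. The laminin-binding alpha chains had opposite directions. Itga3, the alpha 3 chain of the main laminin receptor of podocytes and tubules, read 4667 and 3067 and was 1.52-fold lower, or log2 -0.55 after centring and -0.53 with a pseudocount, both under 1.5-fold. Itga6, the alpha 6 chain of another laminin receptor, read 3629 and 5277 and was 1.45-fold higher, with its second probe set 1.64-fold higher (1726 and 2834). It was past 1.5-fold after centring (log2 0.60) and with the mean of its probe sets (0.63), and at log2 0.36 after quantile normalization. The log2 ratios of Itga6 and Itga3 were 1.15 apart, a 2.21-fold change in their ratio between the arrays. The opposite directions held under all 11 alternatives for each gene, though other backgrounds, or no floor, could not alter Itga6 and Itga3 at these intensities. Itgb1, the beta 1 chain that both can pair with, was 1.48-fold lower at its brightest probe set (6660 and 4513) and 1.10-fold higher at the next (2778 and 3061), which leaves its direction unsettled: without probe sets that can read several transcripts it was at log2 0.14. Itgb4, the other partner of Itga6, lay below background (374.5 and 230.5).

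Itgav, the alpha chain of the vitronectin receptors and of the integrins that release active TGF-beta, read 11130 and 10134, 1.10-fold lower. Among its beta partners, Itgb5 was 1.08-fold lower (4110 and 3802) with a second probe set 1.06-fold higher, Itgb6, an epithelial chain, 1.22-fold lower (972.8 and 795.4), and Itgb8 1.18-fold higher (1830 and 2157). Itgb3 lay below background. These differences are of the size by which probe sets of 1 gene disagree. All 7 leukocyte integrin chains on the array lay below background in both pools, at 117.4 to 571.5 in the WT pool and 8.9 to 549.4 in the EST KO pool, and so did Itga2b of platelets (591.0 and 554.5). Itgb2l, a gene related to the leukocyte chain Itgb2, read 784.5 and 679.1, 1.16-fold lower.

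Agreement between probe sets could be read for 16 of these genes, those with at least 2 probe sets above background in both pools. Their 2 brightest probe sets differed by a median of 0.21 on the log2 scale, as over all genes, and had opposite signs in 4 of 16 (25.0%), beside 29.4% of all genes. Counting all probe sets above background in both pools, 5 genes were split: Col4a1, Col6a2, Itgb1, Itgb5 and Timp2. Timp3, Itga6, Sparc, Thbs1, Ccn1 and Col18a1 kept 1 direction at every such probe set. Tnc, Ccn2, Lamb1, Timp1, Col3a1, Itga3, Adamts10 and Col4a4 were read by 1 probe set above background and have no such check.

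**Figure D3:**
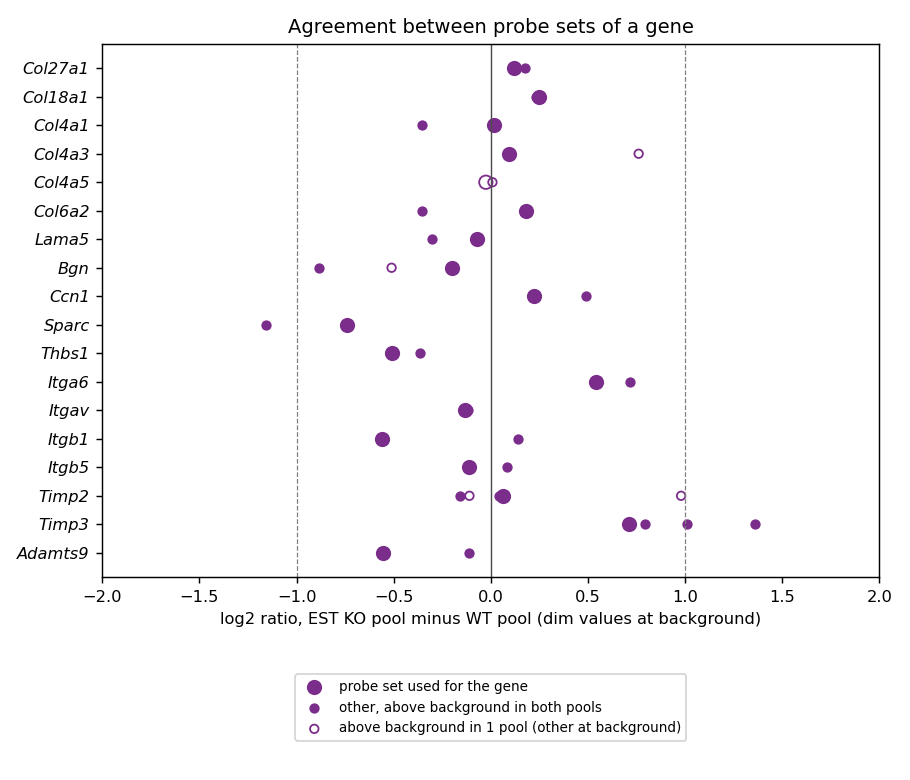
Log2 ratio (EST KO minus WT) of each probe set above background in at least 1 pool, for the genes with at least 2 of them; the large symbol is the probe set used, and open symbols have 1 pool at background. Dashed lines mark 2-fold; the 4 probe sets of Timp3 lie between 0.71 and 1.36, and those of Itgb1 and Col6a2 lie on both sides of 0.

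Other genes of matrix handling were read from 5 lists. Collagen-processing genes were split, with 6 of 12 measured genes lower and 6 higher and a median log2 ratio of 0.00, but the 3 past 1.5-fold were all lower. Over all genes 55.6% were lower and 44.4% higher, with 7.44% at least 1.5-fold lower and 8.62% at least 1.5-fold higher. Plod2, the lysyl hydroxylase that sets the cross-links of stiff collagen, was 2.55-fold lower (2379 and 933.9), Loxl1, an elastin cross-linking oxidase, 1.58-fold lower (1344 and 851.8), and Plod3 1.57-fold lower (2728 and 1743). Crtap, part of the collagen prolyl 3-hydroxylation complex, was 1.21-fold higher (1266 and 1528), and P4hb, the beta subunit of prolyl 4-hydroxylase, 1.20-fold higher (14404 and 17337).

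Of 14 other matrix proteins measured, 9 were lower, beside 55.6% of all genes, and 5 higher (median -0.17). Sdc1, the heparan sulfate proteoglycan syndecan 1, was 1.77-fold lower (1841 and 1041), and Cd44, the hyaluronan receptor, at least 1.51-fold lower (973.5 and 534.1). Ecm1 was 1.42-fold lower (1767 and 1243). Fbln5, which guides elastic fibre assembly, was at least 1.55-fold higher (596.9 and 1046). Nid1, above, was also past 1.5-fold.

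Among 11 measured genes of fibrinolysis and other proteases, 8 were lower, beside 55.6% of all genes, and 3 higher (median -0.35). On each side 1 was past 2-fold, beside 1.42% of all genes lower and 3.08% higher by that much. Ctss, cathepsin S, a lysosomal protease of antigen-presenting cells, was at least 2.25-fold lower (1446 and 491.2), and Plat, tissue plasminogen activator, 1.54-fold lower (4432 and 2869). Htra1, a secreted serine protease that cuts fibronectin and TGF-beta family proteins, was 2.03-fold higher (3151 and 6411). Mep1a, the meprin alpha metalloprotease of brush borders, read 10403 and 15638 (log2 0.59), and Adam15 was 1.48-fold higher (2509 and 3713).

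TGF-beta pathway genes were lower at 10 of 15 measured genes (median -0.19), beside 55.6% of all genes. The 3 past 1.5-fold were all lower, beside 7.44% of all genes lower and 8.62% higher by that much. Tgfb1i1, the focal adhesion adaptor Hic-5, was 2.01-fold lower (1391 and 693.1), with the EST KO value just above background. Tgfbi, a secreted integrin ligand induced by TGF-beta, was 1.80-fold lower (1314 and 728.1), and Tgfbr1, the type I receptor, 1.52-fold lower (6816 and 4491). Tgfb1 itself was 1.38-fold lower (1142 and 828.0), and Tgif1, a corepressor of the pathway, was 1.40-fold higher (1969 and 2766).

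Adhesion complex genes were balanced at 10 lower and 9 higher of 19 (median -0.01), beside 55.6% of all genes lower and 44.4% higher. The split moved to 13 and 6 after quantile normalization and to 9 and 10 after centring. Flna, the actin cross-linker filamin A, was 2.49-fold lower (1666 and 669.5), Actn1, an alpha-actinin, 1.82-fold lower (5597 and 3069), and Tns3, a tensin, 1.61-fold lower (4819 and 3000). Kank1, which meets talin at the edge of adhesions, was 1.56-fold higher (708.1 and 1106), and Pxn, paxillin, 1.40-fold higher (3618 and 5048). The EST KO value of Flna and the WT value of Kank1 were just above background.

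Markers of matrix-bearing and other cells also differed between the pools, and their part in the matrix values was not tested. In bulk tissue, fewer cells of a type and less RNA per cell cannot be told apart. Over all genes 55.6% were lower and 44.4% higher. Fibroblast and pericyte markers were lower at 5 of 7 measured genes of 9 listed. Vim, vimentin, had the largest difference, 2.05-fold lower (2807 and 1368). Cspg4 was at least 1.32-fold higher (612.0 and 890.0), and Dcn, also among the matrix genes above, 1.20-fold higher. The intensities of all 9 summed to 14547 and 10870, and Pdgfra (567.3 and 95) and S100a4 lay below background. Endothelial markers were lower at all 8 measured of 10 listed, with sums of 11612 and 8449 and with Vwf (6.4 and 5.7) and Tek below background. Leukocyte markers were lower at all 6 measured of 12 listed, with sums of 11478 and 7708 and with Ptprc, Cd3e and Cd79a below background. Of the platelet markers Pf4 alone of 4 was measured, 2.01-fold lower (1586 and 788.5), and the sums were 2421 and 1569. Injured tubule markers were lower at 3 of 4 measured genes of 5 listed, with sums of 65529 and 31041, and all 8 proximal tubule markers were higher, with sums of 51701 and 93387.

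**Figure D4:**
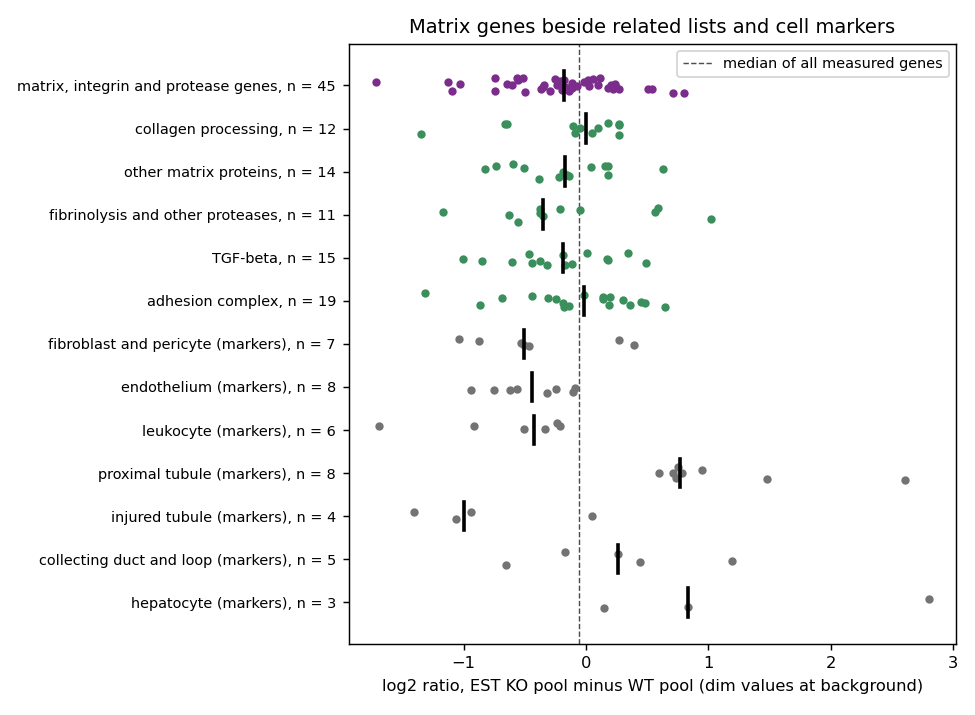
Log2 ratios (EST KO minus WT) of the 45 ordered matrix, integrin and protease genes (purple), of the 5 related lists (green) and of cell markers (grey), 1 point per gene, with a black bar at each median and lists of under 3 genes left out. The dashed line is the median of all measured genes, -0.05; the purple points centre at -0.18 with a tail to -1.71.

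Both arrays had the same mean once the lowest and highest 2% were dropped, medians of 261.8 and 242.4, and 24.0% of probe sets above background in each pool. Sult1e1, which encodes the disrupted enzyme, read 472.7 and 17.2, below background in both pools, so it does not check the genotype label. The labels name kidney as the tissue in most fields but liver for the EST KO pool in the treatment protocol. All 3 measured of 5 hepatocyte markers on the array were higher, beside 44.4% of all genes. They were Ttr, 6.97-fold (1716 and 11957), Cyp2e1, 1.79-fold (11569 and 20655), and Cps1, 1.11-fold (730.7 and 811.7). The other hepatocyte markers, Alb (487.9 and 522.3) and Apoa1 (144.1 and 116.1), both abundant in liver, lay below background in both pools. The 5 summed to 14649 and 34062. Kidney genes such as Slc34a1 (16871 and 28347) and Umod (25568 and 22735) were bright in both pools.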

How the data were processed

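Tissue was pooled within each genotype, RNA was extracted with Trizol and biotinylated cRNA was made from 8 µg of total RNA for an Affymetrix mouse array, per the labels' protocols. The deposited values are intensity on a linear scale for 45101 probe sets, which the authors had scaled to a common trimmed mean (from the values). How probes were summarised, and with which software, is not given in the sources used here. Array medians differed by 8.00%, within the 10% limit, so the values were used as deposited.

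Symbols came from the platform annotation at GEO (34958 with 1 symbol, 932 with several and 9211 with none, the last 2 kinds left unnamed), and symbols were updated by Entrez ID against RefSeq for 34754 of them. The brightest probe set by mean over the arrays stood for its gene. Ratios, floors and counts were computed with Python 3.11.15, numpy 2.4.6, pandas 2.3.3 and statsmodels 0.14.6, and the code was checked on simulated arrays. With 1 array per genotype there is no p-value; the number of arrays limits the precision. Genes were named where at least 1.5-fold apart, listed by name in the rule, among the 2 brightest of their role, partner chains of such genes, or split between probe sets, with up to 5 per related list; the bright kidney genes, cell markers, dim MMPs and sets with a single measured gene fall outside that rule and were picked with their values in view. The member rule and lists were chosen with earlier results of these data known. Alternatives changed the background percentile (75 and 99), the floor (none, or a pseudocount of 500), the scaling, the choice of probe set and the genes counted.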

Additional observations from a re-analysis of the deposited data

How the results depend on the processing

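No alternative reversed a gene that was past 1.5-fold in the main setting, or the median of the family, which ran from -0.19 to -0.12 on the log2 scale. Of 84 summary values, 69 stayed within 1.5 times of the main value (counts) or within the probe set disagreement (median). Under the 75th percentile background 1 gene was at least 2-fold higher, 13 were at least 1.5-fold lower and 4 higher, and 52 were lower and 24 higher by any amount, since 76 genes were then measured. Of 11078 ordered genes over the whole array, 319 were then at least 2-fold higher, 1019 at least 1.5-fold lower and 886 higher. Lower by any amount were 68.4% of the family and 58.1% of all genes. Under the 99th percentile background, with 30 genes measured, 2 were at least 2-fold lower, 4 at least 1.5-fold lower and 1 higher, and 19 were lower by any amount. Of 4406 ordered genes over the whole array, 59 were then at least 2-fold lower, 320 at least 1.5-fold lower and 454 higher. Lower by any amount were 63.3% of the family and 51.0% of all genes. With no floor 1 gene was at least 2-fold and 4 were at least 1.5-fold higher, of 47, beside 330 and 813 of 7452 genes over the whole array. With a pseudocount 2 of 47 genes, and among genes above background in both arrays 2 of 37, were at least 2-fold lower. Over the whole array these counts were 54 of 7452 and 73 of 6084. Quantile normalization, and counting only genes above background in both arrays, each left 1 gene at least 1.5-fold higher, beside 589 of 7451 and 520 of 6084 genes over the whole array. Of single genes, 437 of 463 alternative values stayed within the probe set disagreement of 0.21, and 40 of 45 genes kept their direction in every alternative. Many of these values could not change. Other backgrounds, or no floor, do not alter a gene well above background in both pools. Probe set choices do not alter a gene with 1 usable probe set. The 5 genes that changed direction (Col27a1, Col4a1, Col4a6, Col6a2 and Itgb1) were all under 1.5-fold in the main setting. Itgb1 passed 1.5-fold lower with quantile normalization (log2 -0.74) and with the trend removed (-0.67). Adding type 1 taste receptors to the silent families, an alternative chosen after seeing the data, changed no count of these genes and moved the whole-array count at least 2-fold lower from 104 to 105. No scaling moved the median of all genes by over 0.1. No paired analysis was possible because each genotype has 1 array. Signal over background is a further limit, since 81 of 128 genes had no value above it.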

Other observations

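Several probe sets of these genes below background in both pools had large unfloored differences that the counts above do not use. Among integrins, Itgam, the alpha chain of the myeloid receptor Mac-1, read 219.1 and 8.9, Itgb7 224.3 and 30.6, and Itga5, the fibronectin receptor chain, 377.4 and 136.7. Another Itga5 probe set was nearly level (235.4 and 223.0). A dim probe set of Col1a2 read 611.1 and 174.9. Mmp23 read 563.8 and 176.0, and Adamts4 604.8 and 285.0. In the other direction Itga8, a mesangial chain that binds nephronectin, read 198.7 and 484.3, though its other probe set read 247.2 and 217.2. Lama1 read 17 and 81.8, and dim probe sets of Itga1 read 40.5 and 176.4, of Itgae 10.3 and 86.4 and of Col6a4 81.1 and 243.3. These are examples from each direction and not a count. Values below background have no settled order, so none of these is given as a fold.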
